A study of Mus musculus with 13 samples.

Results

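Sertoli cells, the somatic nurse cells of the seminiferous tubule, are described here through 10 genes of their hormones, transport proteins and junctions, followed in 2 RNA libraries of mouse spermatogonia. They were chosen by symbol as known Sertoli cell products (Fshr, Amh, Inha, Inhba, Inhbb, Dhh, Trf, Shbg, Cldn11 and Rhox5), and 9 of the 10 were analysed here among 20662 listed gene symbols. Rhox5 was not analysed here. The series holds 13 samples of germ cells from the testes of wild-type C57BL/6 mice aged 8 weeks, and the labels name no treatment. The 2 libraries used are titled KIT_AGSC and THY1_AGSC, both labelled spermatogonia, with 1 library in each group. The names are those of surface proteins: KIT is the receptor found on differentiating spermatogonia, and THY1 serves to select for the undifferentiated ones. The sources used here do not say how the cells were separated or how many mice were pooled. The other 11 samples were not analysed here.

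Sertoli cells answer to pituitary FSH through the receptor encoded by Fshr, and feed back to the pituitary with inhibin B, a dimer of the alpha subunit (Inha) and the beta B subunit (Inhbb). They secrete anti-Müllerian hormone (Amh) in the immature testis and desert hedgehog (Dhh), which acts on the peritubular and Leydig cells outside the tubule. They also carry iron to germ cells behind the blood-testis barrier with transferrin (Trf), make androgen-binding protein (Shbg) and build that barrier from tight junctions with claudin 11 (Cldn11). Within the tubule these products are known mainly from Sertoli cells, whereas the labelled cell type of both libraries is the spermatogonium.

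Promoter sequences are shown for Fshr, whose receptor defines the Sertoli response to FSH, and for the 3 of the 4 genes higher in the KIT-labelled library that have an entry in the RefSeq table. Each runs 5′ to 3′ over the 250 bases upstream of the annotated start (RefSeq, GRCm38.p6), and none of the 4 windows overlaps an annotated exon. Capitals mark the matches, on either strand, to 4 motifs: the E-box CACGTG, the GC box GGGCGG, the nuclear receptor half-site AGGTCA and the GATA motif AGATAA.
Fshr, chr17:89200676-89200925, minus strand: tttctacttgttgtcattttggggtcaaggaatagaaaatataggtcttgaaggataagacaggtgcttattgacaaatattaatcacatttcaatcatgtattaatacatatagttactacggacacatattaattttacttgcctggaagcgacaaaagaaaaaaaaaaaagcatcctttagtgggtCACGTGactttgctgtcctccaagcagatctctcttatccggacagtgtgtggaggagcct
Dhh, chr15:98898541-98898790, minus strand: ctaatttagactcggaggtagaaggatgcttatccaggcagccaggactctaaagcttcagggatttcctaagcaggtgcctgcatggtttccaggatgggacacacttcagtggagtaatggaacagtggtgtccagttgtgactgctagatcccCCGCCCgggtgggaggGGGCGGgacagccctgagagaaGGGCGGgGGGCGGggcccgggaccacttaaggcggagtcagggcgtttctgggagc
Inhbb, chr1:119422249-119422498, minus strand: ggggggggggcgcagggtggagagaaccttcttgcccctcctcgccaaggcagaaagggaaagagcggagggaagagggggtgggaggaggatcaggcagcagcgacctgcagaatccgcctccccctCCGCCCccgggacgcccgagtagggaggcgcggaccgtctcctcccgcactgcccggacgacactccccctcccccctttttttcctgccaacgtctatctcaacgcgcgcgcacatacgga
Shbg, chr11:69617906-69618155, minus strand: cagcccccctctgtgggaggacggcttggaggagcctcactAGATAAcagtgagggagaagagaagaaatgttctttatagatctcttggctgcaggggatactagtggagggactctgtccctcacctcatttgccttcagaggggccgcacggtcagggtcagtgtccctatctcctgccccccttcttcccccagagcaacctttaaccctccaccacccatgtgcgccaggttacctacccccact

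The Fshr window holds 1 E-box, from base -61 to base -56 counted from the start, a motif that 6.02% of the 32851 promoter windows in the table share. E-boxes of this form are bound by the USF factors. The Dhh window holds 4 GC boxes, 3 of them in the forward orientation, between bases -94 and -44. Inhbb has 1 GC box from base -122 to base -117, and 32.7% of all windows carry at least 1. Shbg has 1 GATA motif from base -209 to base -204, found in 9.99% of windows. None of the 4 windows holds the nuclear receptor half-site (14.0% of all windows). The matches do not overlap each other and describe letters only. By base composition the windows differ widely, from 36.8% G and C in Fshr to 68.0% in Inhbb, with 57.2% in Shbg and 59.6% in Dhh, against a median of 52.4% over all windows.

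Some facts about the libraries bear on every value below. The deposited values were taken as FPKM, fragments scaled to transcript length and library size, and with 1 library per group there is no replicate, no test and no p-value. The antigen transcripts ran against the titles: Kit was listed at 0 in the KIT-labelled library and at 36.7 FPKM in the THY1-labelled library, and Thy1 stood at 78.8 and 0.723 FPKM. The value columns are headed the same way round as these transcripts, so every direction follows the sample titles and would turn if the titles were exchanged. Depth was read from the low end of each table, as the product of FPKM and transcript length, taken at percentile 5 of the values above 0 among 2307 single-transcript genes. This amount, called a low-end unit here, was 6.41 times larger in the KIT-labelled library, which is therefore taken as the shallower one. The ratio was 6.46 at percentile 2 and 5.98 at percentile 10. A unit was taken as a rough measure of what 1 fragment is worth, which was not tested. Of all genes, 33.2% and 24.2% were listed at 0 in the KIT-labelled and THY1-labelled libraries. Ppia, a gene that nearly every cell uses and named after its value was seen, was among them in both, so a 0 is reported only as listed.

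Together the 9 genes made up a small part of both libraries, a nearly equal one only once the noncoding RNA Rpph1 was left out. Their FPKM summed to 56.8 in the KIT-labelled library and 59.1 in the THY1-labelled library, or 0.0133% and 0.0118% of the sum without Rpph1, a noncoding RNA that took 71.8% and 37.9% of all FPKM. What filled that sum differed. Transferrin alone gave 34.9% of it in the KIT-labelled library and 83.6% in the THY1-labelled library, and without Trf the sums were 37.0 and 9.71 FPKM. The median member stood at 2.66 FPKM against 2.50 for all genes in the former and at 1.25 against 3.13 in the latter. Members above the median gene numbered 5 of 9 in the KIT-labelled library and 2 of 9 in the THY1-labelled library.

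**Figure D1:**
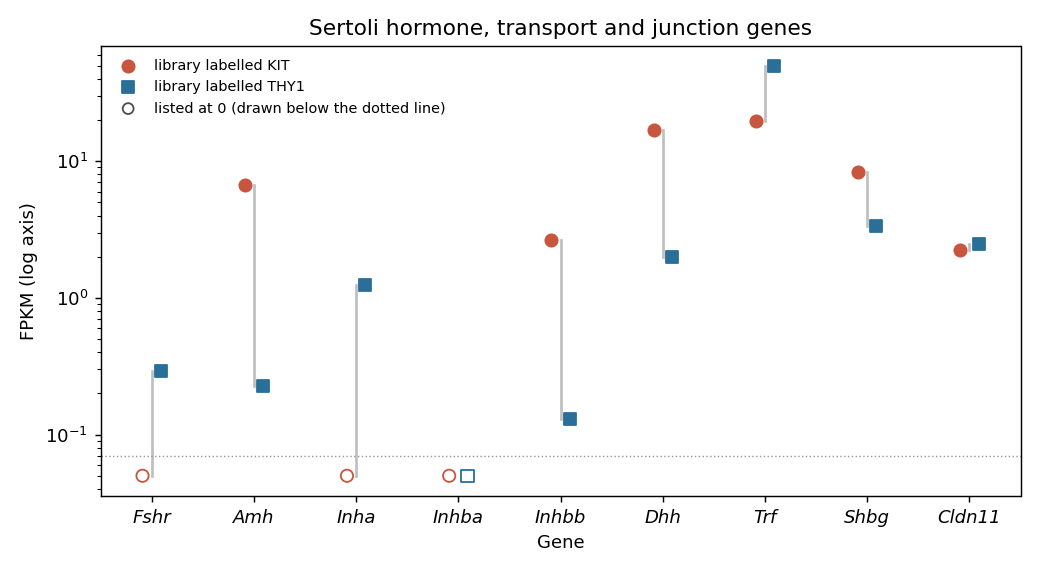
FPKM (log axis) of the 9 genes in the KIT-labelled library (circles) and the THY1-labelled library (squares), 1 value per library, with open symbols for genes listed at 0. Amh, Inhbb, Dhh and Shbg lie higher in the KIT-labelled library, and Trf at 49.4 FPKM in the THY1-labelled library is the highest value.

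Differences are given as log2(FPKM + 1), labelled KIT minus labelled THY1, a scale that understates the change of low genes. Genes were usable if they reached 1 FPKM in at least 1 of the libraries, as 7 of the 9 did and Fshr and Inhba did not. At least 2-fold higher in the KIT-labelled library were 4 of the 7 (Amh, Dhh, Inhbb and Shbg), beside 39.5% of the 15573 usable genes. At least 2-fold higher in the THY1-labelled library were 2 of the 7 (Trf and Inha), beside 41.1% of usable genes, and Cldn11 lay within 2-fold. The median difference of the 7 was 1.11, beside -0.0026 over all usable genes. After scaling to a median ratio of 1, Shbg came within 2-fold and 3 of 7 were higher in the KIT-labelled library, beside 33.3% of all genes usable then. That scaling moved the median of all usable genes to -0.57, and the members' median was then 0.62.

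FSH reception was at the lower limit of both tables. Fshr, the FSH receptor gene, was listed at 0 in the KIT-labelled library and at 0.294 FPKM in the THY1-labelled library. The latter value came to 1.62 low-end units. Because 1 unit is worth 1.16 FPKM for this gene in the KIT-labelled library, the same level there would have been 0.253 units, so the listed 0 does not show a lower level than in the THY1-labelled library.

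Among the hormones of the TGF-beta family, Amh and Inhbb were higher in the KIT-labelled library, and the depth did not allow a direction for Inha. Amh was at 6.71 FPKM in the KIT-labelled library and at 0.227 FPKM in the THY1-labelled library, a ratio of 29.6 and a difference of 2.65 on the log2 scale. Inhbb, the beta B subunit shared by inhibin B and activin B, was at 2.66 and 0.130 FPKM, a ratio of 20.5 and a difference of 1.69. Both values in the KIT-labelled library rested on about 4 low-end units (4.10 for Amh and 4.13 for Inhbb). In the deeper library the same levels would have come to 26.3 and 26.5 units, and 0.887 and 1.29 were measured, so the THY1-labelled library was deep enough to show these 2 genes at the level of the other. With about 4 units behind the larger value, the size of either ratio is uncertain.

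Inha encodes the alpha subunit that makes an inhibin of a beta subunit. It was listed at 0 in the KIT-labelled library and at 1.25 FPKM, or 4.31 low-end units, in the THY1-labelled library. Its level there would have been 0.672 units in the KIT-labelled library, so the listed 0 does not separate the libraries, although the gene counts among the 2 past 2-fold above. Inhba, the beta A subunit of activin A and inhibin A, was listed at 0 in both. Of the pair that forms inhibin B, the KIT-labelled library thus listed Inhbb above 0 and Inha at 0, and the THY1-labelled library listed both, with Inhbb at 0.104 of the FPKM of Inha.

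Desert hedgehog had the most low-end units among the members higher in the KIT-labelled library. Dhh was at 17.0 FPKM there and at 2.00 FPKM in the THY1-labelled library, a ratio of 8.50 and a difference of 2.58 on the log2 scale. These values came to 26.3 and 19.9 low-end units with the RefSeq-linked transcript of 4242 bases, and to 4.31 and 3.25 units with a shorter annotated transcript of 694 bases. The gene's span overlaps Rhebl1, which was listed at 0 and at 0.390 FPKM, and the sources used here do not say whether reads were counted by strand. Dhh stood above 79.5% of all genes in the KIT-labelled library and above 44.9% in the THY1-labelled library.

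**Figure D2:**
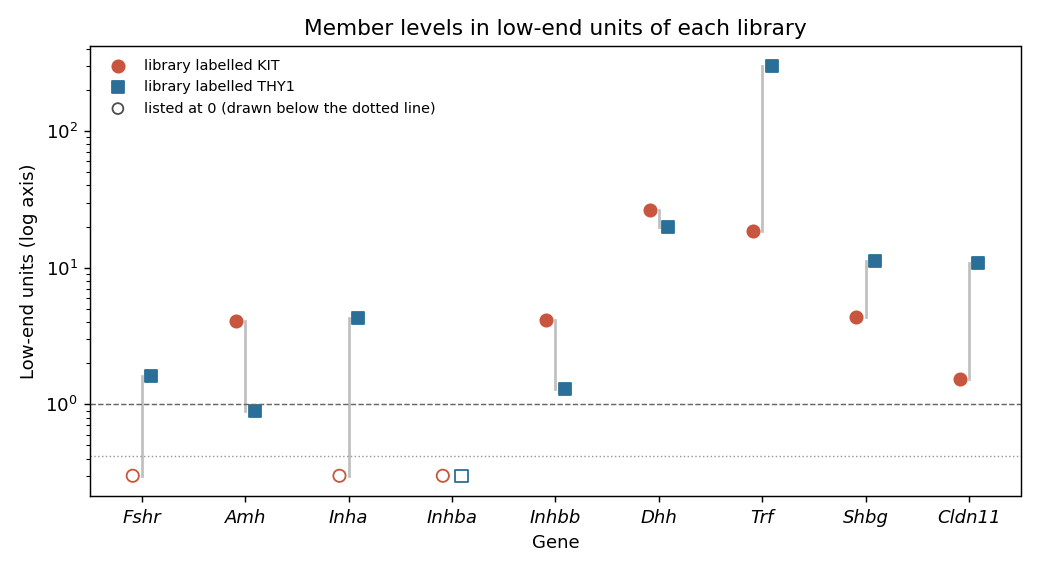
The same genes in low-end units (log axis), in which 1 (dashed line) is a rough, untested measure of 1 fragment in that library. Open symbols mark genes listed at 0. With RefSeq-linked transcript lengths only Dhh and Trf exceed 10 units in both libraries (with the shortest transcripts none does), while Amh and Inhbb lie near 4 units in the KIT-labelled library and near 1 unit in the THY1-labelled library.

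The transport proteins split. Trf, the iron carrier, was at 19.8 FPKM in the KIT-labelled library and at 49.4 FPKM in the THY1-labelled library, which was 2.49 times higher, with a difference of -1.27. It was the highest member in both libraries, above 81.4% and 88.7% of all genes, and rested on 18.7 and 297 low-end units, or 3.14 and 50.1 with the shortest of its annotated transcripts (433 bases). Shbg, which encodes androgen-binding protein in the testis, was at 8.40 FPKM in the KIT-labelled library and at 3.35 FPKM in the THY1-labelled library. Its ratio of 2.51 and difference of 1.11 rested on 4.36 and 11.2 low-end units, or 1.78 and 4.54 with a shorter annotated transcript of 578 bases. The difference was 0.62 after scaling to a median ratio of 1. At its level in the THY1-labelled library, Shbg would have come to 1.74 units in the KIT-labelled library. With 4.36 units measured there, the direction is uncertain.

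Claudin 11 was nearly level. Cldn11 was at 2.23 FPKM in the KIT-labelled library and at 2.46 FPKM in the THY1-labelled library, a difference of -0.10 that became 0.092 with the same upper quartile, 0.058 with the same sum without Rpph1 and -0.46 with a median ratio of 1. The former value came to 1.52 low-end units and the latter to 10.8, so the shallower library bounds the comparison.

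The order of the members changed between the libraries. From high to low it was Trf, Dhh, Shbg, Amh, Inhbb and Cldn11 in the KIT-labelled library, with Fshr, Inha and Inhba listed at 0. In the THY1-labelled library it was Trf, Shbg, Cldn11, Dhh, Inha, Fshr, Amh and Inhbb, with Inhba listed at 0. With 1 library each, no neighbours in either order can be said to differ beyond a spread. Amh stood above 65.7% of genes in the KIT-labelled library and above 27.7% in the other, and Inhbb above 51.0% and 25.5%. In both libraries 5 of the 9 genes reached 3 low-end units: Trf, Dhh and Shbg in each, with Amh and Inhbb in the KIT-labelled library and Inha and Cldn11 in the THY1-labelled library. With the shortest annotated transcripts Shbg dropped out in the KIT-labelled library, which left 4 there.

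**Figure D3:**
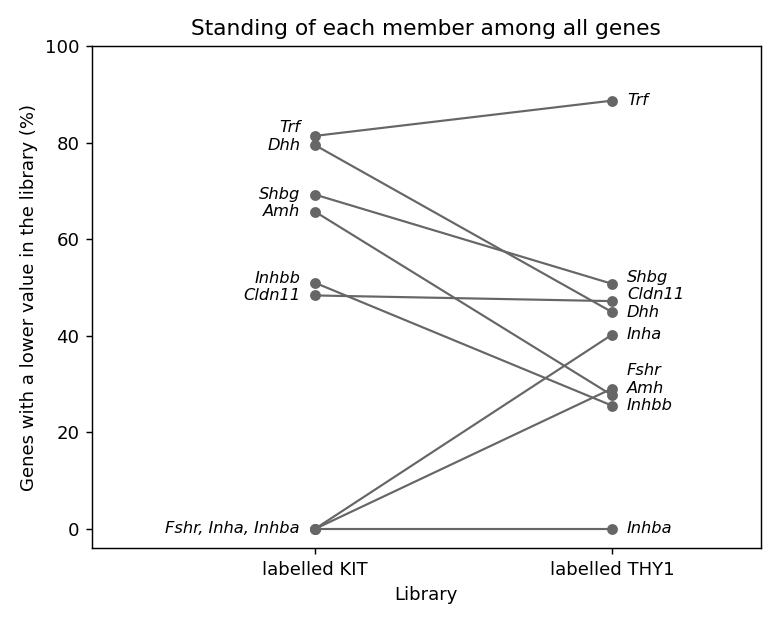
Share of all 20662 genes with a lower value (percent) for each of the 9 genes in the KIT-labelled library (left) and the THY1-labelled library (right), with a line for each gene. Trf stays highest at 81.4% and 88.7%, and Dhh, Amh, Shbg and Inhbb stand lower on the right.

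The genes through which these products act were read from lists of known partners. Of 17 usable partners of activin, inhibin and AMH, 4 were at least 2-fold higher in the KIT-labelled library and 10 in the THY1-labelled library. These counts stand beside 39.5% and 41.1% of all usable genes, and the list's median was -1.22. Amhr2, the AMH receptor, was at 7.60 FPKM in the KIT-labelled library and at 41.2 FPKM in the THY1-labelled library, opposite to its ligand. The activin receptor Acvr2a was at 108 and 38.6 FPKM and the activin mediator Smad3 at 47.4 and 9.89. Smad2, the other activin mediator, was listed at 0 against 35.5 FPKM, the BMP receptor Bmpr1a at 0 against 14.3, and the common mediator Smad4 stood at 2.78 against 19.3. Only 1 of the 17 was higher in the KIT-labelled library after scaling to a median ratio of 1, beside 33.3% of all genes usable then.

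Of 11 usable hedgehog genes, 7 were higher in the KIT-labelled library and 3 in the THY1-labelled library, with a median of 1.35. Among all usable genes the shares were 39.5% and 41.1%. After scaling to a median ratio of 1 the counts were 5 and 3 of 10 and the median 1.12. The shares of all genes usable then were 33.3% and 46.2%. The hedgehog target and effector Gli1 was at 8.26 FPKM in the KIT-labelled library and at 0.438 in the THY1-labelled library, the ligand-binding antagonist Hhip at 9.57 and 1.05, and the co-receptor Boc at 71.3 and 10.6. Sufu, an inhibitor of the Gli factors, ran the other way at 3.20 and 72.9 FPKM. So did the receptor Ptch1 (0.817 and 5.55 FPKM) and the co-receptor Cdon (1.69 and 5.77), both named after their values were seen. Shh was at 1.32 FPKM against a listed 0, and it was no longer usable after scaling to a median ratio of 1. Ihh was listed at 0 in both libraries, and Shh and Ihh were named after their values were seen. Low-end units are given for the members only, so depth was not weighed for the genes of the lists.

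Downstream of the FSH receptor, 15 genes were listed: G protein, cyclase, kinase, phosphodiesterase and arrestin genes and the transcription factor gene Creb1. Of these, 9 were higher in the THY1-labelled library and 1 in the KIT-labelled library, beside 41.1% and 39.5% of all usable genes. With Lhcgr, the LH receptor of Leydig cells (4.62 against 81.6 FPKM, labelled KIT first, named after its value was seen), the list's median was -1.77. The 1 gene was the adenylyl cyclase gene Adcy3 at 190 FPKM in the KIT-labelled library against 11.5. Of the regulatory subunits of protein kinase A, Prkar1a was at 1.11 against 127 FPKM and Prkar2a at 4.43 against 246, while Prkar2b, named after its value was seen, was at 12.6 against 9.78 (labelled KIT first). Gnas, the stimulatory G protein, was at 110 against 364. Arrb2, an arrestin that turns such receptors off, was listed at 0 against 15.9 FPKM. Many of these 15 genes act in most cell types, not in the FSH response alone.

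Junction genes are given by kind, and the unscaled counts stand beside 39.5% and 41.1% of all usable genes (labelled KIT first). Among 17 tight junction genes, 11 were higher in the KIT-labelled library and 4 in the THY1-labelled library, and among 10 adherens, gap and ectoplasmic junction genes 1 was higher in the former and 7 in the latter. After scaling to a median ratio of 1 the tight junction counts were 7 and 5 of 15, and the others 0 and 8 of 10, beside 33.3% and 46.2% of all usable genes under that scaling. The difference between the kinds was not tested. Over all 27 the counts were 12 and 11 with a median of 0.50, which turned to -1.02 after scaling to a median ratio of 1, with counts of 7 and 13 of 25. Cldn3, a claudin of the newly formed barrier, was at 1767 FPKM in the KIT-labelled library against 116. The scaffold Tjp1 (2.097 against 32.9), the adhesion molecule F11r (1.48 against 32.5) and the nectin Pvrl3 of germ cell contacts (2.04 against 147) were higher in the THY1-labelled library.

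Of 10 usable iron genes around transferrin, 6 were higher in the THY1-labelled library and 3 in the KIT-labelled library (median -2.08), beside 41.1% and 39.5% of all usable genes. The transferrin receptor Tfrc was listed at 0 in the KIT-labelled library and at 68.1 FPKM in the other, the iron importer Slc11a2 at 1.56 and 30.98, the iron-sensing Ireb2 at 0 and 37.4 and the ferroxidase Cp at 13.1 and 84.7. The ferritin heavy chain Fth1 ran opposite at 38.2 and 2.86 FPKM. Of 7 usable androgen and steroid response genes, 5 were higher in the KIT-labelled library and 1 in the other (median 2.53). Among all usable genes these shares were 39.5% and 41.1%. After scaling to a median ratio of 1 the counts were 4 and 1 of 7, beside 33.3% and 46.2% of all genes usable then. The list was led by the oestrogen receptor Esr2 (24.3 against 1.65 FPKM), the reductases Srd5a2 (15.2 against 0.955) and Srd5a3 (9.63 against 0.844), and the glucocorticoid receptor Nr3c1 (66.1 against 9.46). Among 18 other Rhox homeobox genes, several of them near-identical copies whose values are uncertain, 12 were listed at 0 in both libraries and the highest was Rhox1 at 7.43 and 4.52 FPKM.

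**Figure D4:**
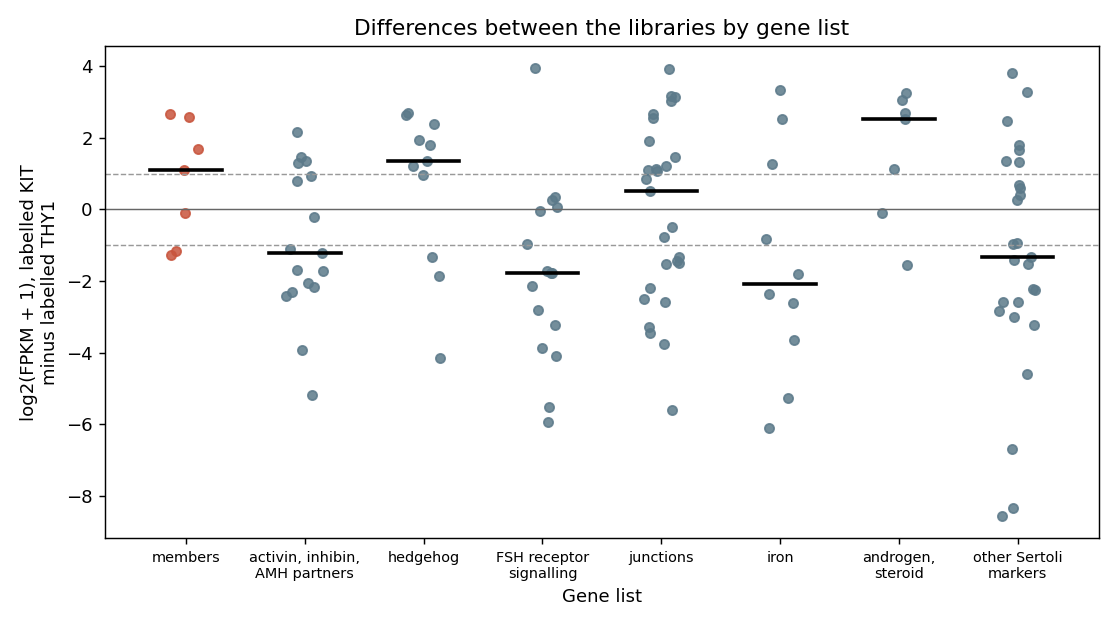
Difference on the log2(FPKM + 1) scale, labelled KIT minus labelled THY1, of each usable gene (points) in the members and 7 related lists, with list medians (bars) and 2-fold limits (dashed). The members' median is 1.11, the hedgehog median 1.35 and the FSH receptor signalling median -1.77; the junction median of 0.50 turns negative after scaling to a median ratio of 1.

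Genes on a broad list of other Sertoli markers, not all of them particular to Sertoli cells, did not follow Amh, Inhbb and Dhh as a group. Of 27 usable, 7 were higher in the KIT-labelled library and 14 in the THY1-labelled library, with a median of -1.33. Among all usable genes the shares were 39.5% and 41.1%. The largest differences were in Vim, an intermediate filament of many cell types, listed at 0 against 375 FPKM, Clu, a secreted chaperone, at 1.62 against 848, Serpina5 at 0 against 102 and the chemokine Cxcl12 at 0 against 23.4 (labelled KIT first). Chosen after their values were seen, the sex-determining factor Sox9 was at 2.87 and 0.227 FPKM, Wt1 at 5.30 and 1.45 and the stem cell niche factor Gdnf at 2.19 and 0.264, on the side of Amh. Gata4 (2.24 and 18.4 FPKM), Kitl, the ligand of KIT (6.79 and 54.7), and Cst12 (7.44 and 38.3) were on the other side.

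Markers of other cell types also moved between the libraries. Their counts stand beside 39.5% of all usable genes higher in the KIT-labelled library and 41.1% in the THY1-labelled library. Leydig cells, which receive the desert hedgehog signal, had 6 of 8 markers higher in the THY1-labelled library and 1 in the other, with summed FPKM of 12853 against 249, while Hsd3b6 and Hsd17b3 were listed at 0 in the KIT-labelled library. All 4 usable of 6 peritubular markers were higher in the KIT-labelled library (summed 217 against 55.4 FPKM), with Des listed at 0 in both. Macrophage markers were 4 and 3 of 9 (summed 260 and 965 FPKM, labelled KIT first), with C1qc listed at 0 in the THY1-labelled library. Aif1 alone gave 880 FPKM of the latter sum, and without it the sums were 236 and 84.4 FPKM. Endothelial markers were 3 and 1 of 4 usable (64.2 and 8.48 FPKM), with Emcn listed at 0 in both and Pecam1 in the KIT-labelled library. T lymphocyte markers were 4 and 1 of 6 usable (51.8 and 14.7 FPKM), with Cd3g listed at 0 in both. Other sums also leaned on single genes (labelled KIT first). Without Ptgds the Leydig sums were 225 and 6391 FPKM, and without Tagln the peritubular sums were 61.7 and 8.20. Without Tek the endothelial sums were 17.6 and 5.01, and without Cd5 the T lymphocyte sums were 24.3 and 11.7. Of 9 usable spermatogonial markers, 4 and 5 were higher (188 and 341 FPKM, or 186 and 201 without Ddx4), and Zbtb16 and Lin28a were listed at 0 in both. Higher in the KIT-labelled library were the stem and progenitor genes Gfra1 (3.91 against 0.102 FPKM), Id4 (3.75 against 0.936), Nanos2 (54.1 against 1.49) and Nanos3 (118 against 2.74). On the other side were Kit, the retinoic acid target Stra8 (0.743 against 34.1) and the broader germ cell genes Ddx4 and Dazl. Also there was Uchl1 (3.26 against 49.5), a spermatogonial marker that lay opposite to Gfra1, Id4, Nanos2 and Nanos3. Nanos2 and Stra8 thus ran against the titles as Thy1 and Kit did. The part of all these markers in the values of the Sertoli genes was not tested, and in such bulk RNA fewer cells of a type and less RNA per cell cannot be told apart.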

How the data were processed

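Each deposited table holds 1 gene symbol and 1 decimal value per row. The values were taken as FPKM made by the authors with Cufflinks 2.1.1, which the submitters' processing notes name together with CASAVA, TopHat 1.4.1 and build mm9 but with no role for each. The headers name no unit, and for the annotation and the treatment of multi-mapping reads the sources used here give nothing. Per the labels' protocols, ribosomal RNA was depleted and the libraries were directional. Tables were assigned to samples as the series records them and to groups by title.

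Differences are log2(FPKM + 1), labelled KIT minus labelled THY1, over genes that reached 1 FPKM in at least 1 library, and counts use 2-fold. Low-end units use GENCODE M21 transcript lengths: single-transcript genes over 1000 bases set the unit, and each member was given the length of its RefSeq-linked transcript. Of the 9 genes, 7 had an entry in the RefSeq promoter table. No coordinate was carried between builds. The members and lists were chosen with earlier results of these data known. Named genes are all members, up to 4 of each list with the largest difference and up to 2 with the highest mean, of which some are left out here. Markers given as listed at 0, Gata4, Kitl, Cst12, the spermatogonial markers beyond that rule, and genes so marked in the text were chosen after their values were seen. The counting was tested on simulated data. Other settings were a pseudocount of 0.1, 3 scalings, other minimums, genes above 0 in both libraries and 4-fold, with a minimum of 3 low-end units and other low-end percentiles added after seeing the data. The work was done in Python 3.11.15 with pandas 2.3.3, numpy 2.4.6 and matplotlib 3.10.9.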

Additional observations from a re-analysis of the deposited data

How the results depend on the processing

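The median difference of the usable genes, 1.11 with the settings of the report, was 0.62 after scaling to a median ratio of 1 and 0 with no minimum, which brings in Fshr and Inhba. It lay between 1.11 and 1.85 under the other settings. The count of members higher in the KIT-labelled library was 4 of 7. It was 3 of 7 after scaling to a median ratio of 1 and 2 of 7 when 4-fold was required (Amh and Dhh). With a minimum of 5 FPKM it was 3 of the 4 usable then, and over genes above 0 in both libraries 4 of 6. The count higher in the THY1-labelled library was 2 of 7, and it was 1 of 4 with a minimum of 5 FPKM. It was 1 of 6 over genes above 0 in both libraries, which leaves out Inha, and 0 of 7 when 4-fold was required. Over all usable genes the shares (labelled KIT first) were 39.4% and 45.0% with a minimum of 5 FPKM and 23.8% and 29.4% at 4-fold. They were 33.3% and 46.2% after scaling to a median ratio of 1 and 41.5% and 33.9% over genes above 0 in both libraries. Cldn11 turned from -0.10 to 0.092 with the same upper quartile and to 0.058 with the same sum without Rpph1. These 2 scalings moved the median of all usable genes by 0.26 and 0.22. The number of members with at least 3 low-end units stayed at 5 in each library at percentiles 2 and 10. It was 4 and 5 with the shortest annotated transcripts (labelled KIT first). A minimum of 3 such units left the counts at 4 and 2 of 7, beside 34.0% and 43.5% of all genes usable then. No paired analysis was possible because each of the 2 groups compared has 1 library and the titles give these no replicate number. Depth limits Fshr, Inha and Cldn11, since their levels in either library correspond to fewer than 2 low-end units in the KIT-labelled library. Shbg is limited too, since its level in the THY1-labelled library corresponds to 1.74 such units, with 4.36 measured.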
